A study of Mus musculus with 4 samples.

Results

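The genes described here are those of the mouse major histocompatibility complex (MHC, called H2 in the mouse) and of antigen processing. They were chosen by symbol: every symbol that starts with H2- with the hyphen, plus Psmb8, Psmb9, Tap1, Tap2 and Tapbp. The rule found 42 of the 9997 symbols in the table of deposited values: 2 classical class I genes, 25 non-classical class I genes, 10 class II genes, 4 antigen processing genes and H2-Ke6, which is named after the K region but encodes a metabolic enzyme and no MHC molecule. Tapbp, H2-Q6 and B2m, which encodes the light chain of class I molecules, were not analysed here.

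The RNA came from embryoid bodies (floating clusters of differentiating stem cells) made with ES-E14TG2a, a mouse embryonic stem cell line. The 4 libraries, 1 per group, were control embryoid bodies and embryoid bodies given all-trans retinoic acid (ATRA) and labelled 0, 6 and 10 days. ATRA, the signalling form of vitamin A, was used at 5 µM and given on culture days 4 and 6, and after 8 days the bodies were moved to coated dishes. The culture day of the control is not stated in the labels, so ATRA and culture age cannot be told apart, and the same holds for the stage and the dish.

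Class I molecules display peptides from inside the cell to killer T cells, and class II molecules, made mainly by professional antigen-presenting cells, display peptides from ingested material to helper T cells. Peptides for class I are cut by the proteasome, whose inducible subunits include Psmb8 and Psmb9, and are carried into the endoplasmic reticulum by the transporter of Tap1 and Tap2. Embryonic stem cells are known for very low class I on their surface, which increases on differentiation and with interferon. The classical class I genes share a promoter module: enhancer A, bound by NF-κB; a neighbouring region II, bound by retinoid receptors, for one of which (Rxrb) it was a founding target; an interferon response sequence bound by IRF proteins; and X2 and Y boxes, shared in kind with class II promoters and bound by CREB and NF-Y proteins.

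The promoters below are shown to compare their letters with that module. H2-K1 and H2-D1, the classical class I genes, had a match to each of its elements. H2-Q7, highest at 0 days, had all but the full enhancer A. H2-T23, highest at 10 days, had the region II half-site, a Y box and a general interferon-stimulated core, and Tap1 an X2 core and a Y box only. Each runs 5′ to 3′ from 250 bases before to 50 after the annotated start, from RefSeq on build GRCm38.p6 (the C57BL/6J genome, not that of the ES line). Capitals mark letters that matched a searched motif on either strand.
H2-K1: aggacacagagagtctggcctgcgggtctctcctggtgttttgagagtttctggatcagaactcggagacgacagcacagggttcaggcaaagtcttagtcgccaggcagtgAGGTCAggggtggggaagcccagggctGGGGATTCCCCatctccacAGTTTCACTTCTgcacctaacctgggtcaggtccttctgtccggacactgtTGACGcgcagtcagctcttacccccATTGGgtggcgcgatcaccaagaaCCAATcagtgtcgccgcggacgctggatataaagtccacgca
H2-D1: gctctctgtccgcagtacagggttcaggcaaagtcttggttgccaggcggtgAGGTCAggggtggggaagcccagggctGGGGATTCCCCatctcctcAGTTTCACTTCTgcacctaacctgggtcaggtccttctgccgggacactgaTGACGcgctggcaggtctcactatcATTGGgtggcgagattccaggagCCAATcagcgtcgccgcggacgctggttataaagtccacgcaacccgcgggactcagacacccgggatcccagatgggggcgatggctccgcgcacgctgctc
H2-Q7: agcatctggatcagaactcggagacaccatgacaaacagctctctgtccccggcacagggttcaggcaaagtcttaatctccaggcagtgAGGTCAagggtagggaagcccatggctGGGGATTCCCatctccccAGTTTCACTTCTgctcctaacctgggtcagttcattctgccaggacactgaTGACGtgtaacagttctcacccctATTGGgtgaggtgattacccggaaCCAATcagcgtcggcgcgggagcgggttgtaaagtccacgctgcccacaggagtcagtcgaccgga
H2-T23: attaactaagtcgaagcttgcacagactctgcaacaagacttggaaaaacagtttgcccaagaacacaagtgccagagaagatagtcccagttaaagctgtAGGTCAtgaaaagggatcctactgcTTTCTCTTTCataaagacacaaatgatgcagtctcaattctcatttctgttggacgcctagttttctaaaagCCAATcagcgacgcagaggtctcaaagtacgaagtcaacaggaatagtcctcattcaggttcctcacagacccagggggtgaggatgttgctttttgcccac
Tap1: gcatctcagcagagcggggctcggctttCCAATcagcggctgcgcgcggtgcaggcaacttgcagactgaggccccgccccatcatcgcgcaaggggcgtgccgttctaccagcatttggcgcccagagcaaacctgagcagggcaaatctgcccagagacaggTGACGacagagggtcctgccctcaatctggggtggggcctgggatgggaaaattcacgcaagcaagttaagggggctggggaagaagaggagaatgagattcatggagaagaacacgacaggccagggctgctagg
Their positions are chr17:34000298-34000597 (minus strand) for H2-K1, chr17:35262844-35263143 (plus) for H2-D1, chr17:35438905-35439204 (plus) for H2-Q7, chr17:36032652-36032951 (minus) for H2-T23 and chr17:34187306-34187605 (plus) for Tap1.

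Of the 42 genes, 32 had a promoter in the RefSeq table, and 7 motifs were searched on both strands; they were picked with these sequences known. The letters of enhancer A and of the class I interferon response sequence were read from the H2-K1 promoter itself, so its own match is given by construction. Enhancer A (GGGGATTCCCC) was found in 6 of all 27025 promoters of the same length (0.0222%), and 2 of the 6 were H2-K1 and H2-D1. Its first 10 letters (GGGGATTCCC), which overlap it, were in 28 promoters (0.104%) and, among the MHC genes, also in H2-Q7. The class I interferon response sequence (AGTTTCACTTCT) was in 10 promoters (0.0370%), of which 5 were H2-K1, H2-D1, H2-Q4, H2-Q7 and H2-Q10. The general interferon-stimulated core (2 copies of GAAA with 2 bases of any kind between them) was in 3.49% of all promoters and in H2-T23 and H2-T22 among the MHC genes. The retinoid receptor half-site (AGGTCA) was in 7 of the 32, against 16.0% of all promoters. The X2 core (TGACG) was in 14 and the Y box (ATTGG) in 28 of the 32, against 21.02% and 37.9% of all promoters. The windows of Psmb9 and Tap1 overlap, and the same letters gave the X2 and Y matches of both. Such matches are letters in a window and show no binding.

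A level is given in FPKM, the fragments counted per kilobase of transcript, scaled to the size of the library. A difference is one of log2(FPKM + 1), so that of a low gene is understated. The words higher and lower stand for 2-fold or more on that scale in counts of genes, among the 5885 genes that reached 1 FPKM in at least 1 library. With 1 library per group there is no replicate, test or p-value, and every value describes these libraries. The estimated depth was 24500000 to 27300000 fragments, so 3 fragments on a 1.5 kb transcript are worth 0.0733 to 0.0816 FPKM. In a bulk sample, fewer cells expressing a gene and less RNA per cell cannot be told apart.

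Of the 42 genes, 23 passed the filter at 1 FPKM and 19 did not, 7 of them listed at 0 in all 4 libraries. At 0 days, 17 genes were higher than in the control and none was lower, while 12.2% of all tested genes were higher and 12.8% lower. A gene that passed the filter only through an ATRA library was more likely to be called higher there. H2-DMb1 passed in this way without such a call (0.993 FPKM in the control and 1.17 at 0 days). Among the 11 genes that reached 1 FPKM in the control itself, 7 were higher at 0 days, against 7.46% of all such genes. The median log2 difference of the 23 genes was 1.85, beside -0.04 over all tested genes.

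After 0 days the genes parted. At 6 against 0 days 12 of the 23 were lower and none higher (4.88% and 8.22% of all tested genes), with a median of -1.06 beside 0.01. At 10 against 6 days 7 were higher and none lower (3.70% and 0.850%), with a median of 0.74 beside 0.02. At 10 days against the control 15 were higher and none lower (19.6% and 17.1%), with a median of 1.75 beside -0.04. These comparisons share libraries and are not independent of each other. The filter also bears on these counts. Of the 23 genes, 12 were below 1 FPKM in the control, which favours higher calls against it. Genes that passed only through the 0-day library, such as H2-Q5 and H2-T10, favour lower calls at 6 days and a peak at 0 days. Of 21 genes with a 2-fold range over the libraries, 12 were highest at 0 days and 9 at 10 days, and none in the control or at 6 days. Among all 3047 genes with such a range, 17.9% were highest at 0 days, 34.6% at 10 days, 39.4% in the control and 8.14% at 6 days.

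**Figure D1:**
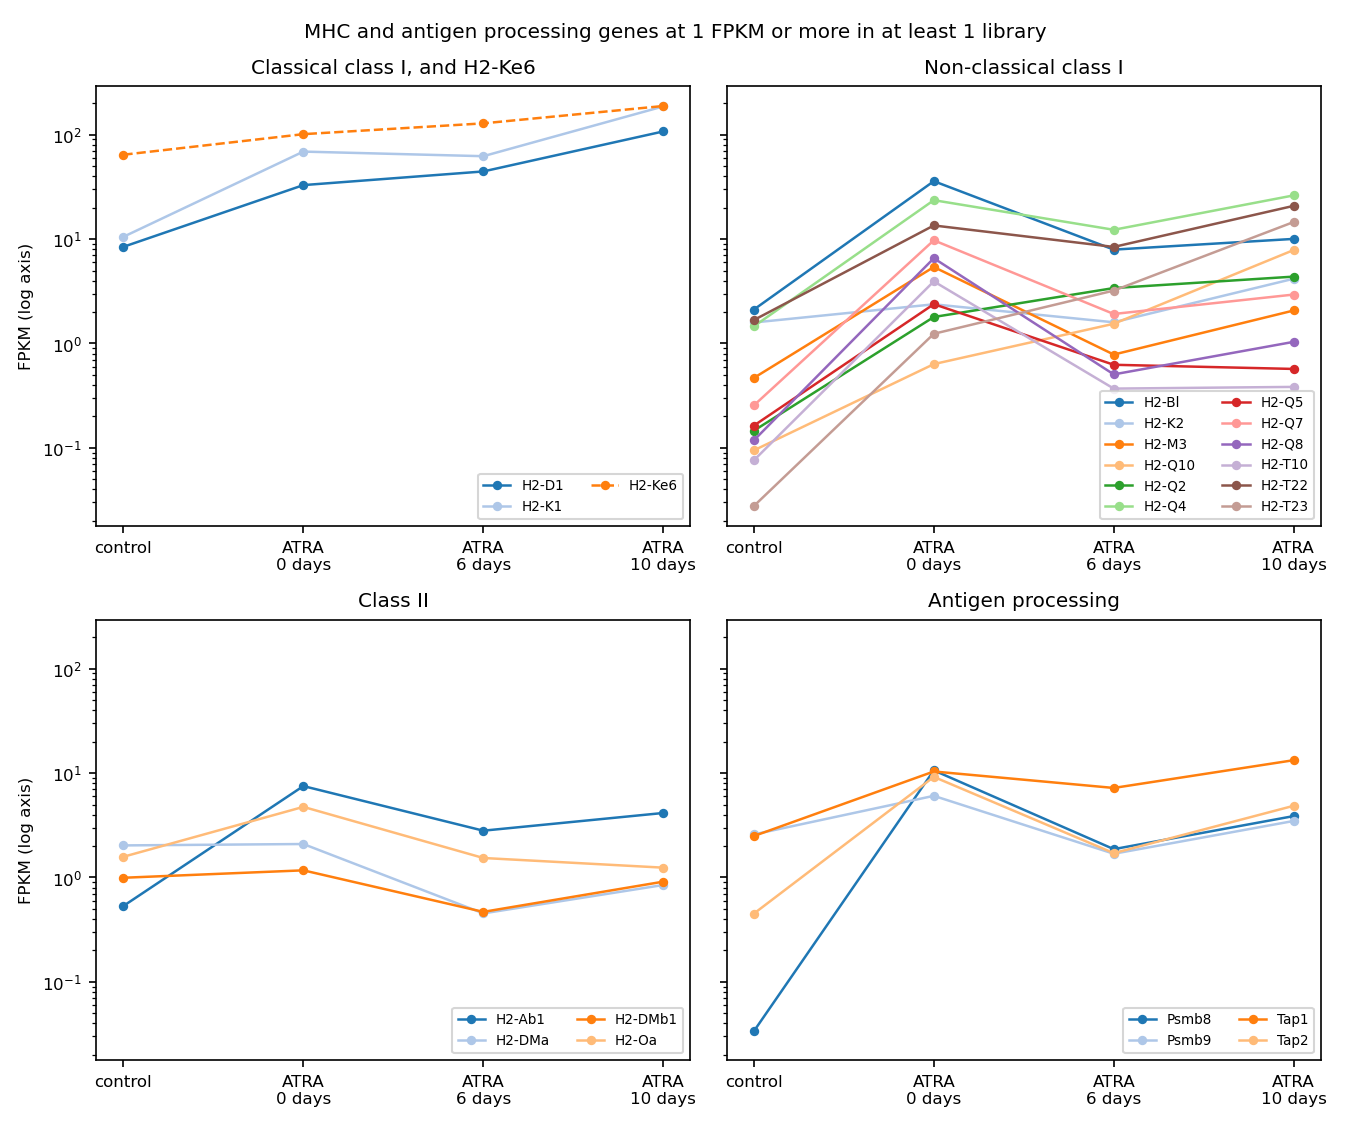
FPKM on a log axis in each of the 4 libraries (1 point per library) for the 23 MHC and antigen processing genes at 1 FPKM or more, by class. H2-K1 and H2-D1 end highest at 10 days, while Psmb8, Tap2, H2-Bl, H2-Q7 and H2-Ab1 peak at 0 days.

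The 2 classical class I genes had the highest peak levels of the MHC genes, both at 10 days; at 0 days H2-Bl (35.9 FPKM) was above H2-D1 (32.9 FPKM). H2-K1 (chromosome 17, 33996017 to 34000347, minus strand, mm10) stood at 10.5 FPKM in the control and, with ATRA, at 68.9 (0 days), 62.2 (6 days) and 187 FPKM (10 days). H2-D1 (35262730 to 35267499, plus strand) stood at 8.43, 32.9, 44.5 and 107 FPKM in the same order. Both were thus lowest in the control, close between 0 and 6 days, and higher again at 10 days. Their summed level was 102 FPKM at 0 days and 18.9 FPKM in the control, a 5.37-fold ratio, and 294 FPKM at 10 days, 15.5 times the control and 2.76 times the 107 FPKM of 6 days. Relative to H2-D1, H2-K1 was 1.25 times as high in the control, then 2.09 at 0 days, 1.40 at 6 days and 1.74 at 10 days. This ratio does not depend on the scaling of the libraries.

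Non-classical class I molecules have narrower tasks, among them signals to natural killer cells and the display of special peptides. Of 25 such genes 12 passed the filter. At 0 days 10 were higher than in the control (12.2% of all tested genes were), and at 6 against 0 days 6 were lower (4.88%). Of these 12 genes, 8 were below 1 FPKM in the control and passed only through an ATRA library. Among the 4 that reached 1 FPKM in the control itself, 3 were higher at 0 days, against 7.46% of all such genes. The 25 genes summed to 8.39 FPKM in the control, then 108 at 0 days, 43.7 at 6 days and 96.8 at 10 days. This sum was thus close between 0 and 10 days, where that of the classical pair was highest at 10 days.

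Several of them had their peak at 0 days. H2-Bl, annotated as a polymorphic pseudogene, stood at 2.11 FPKM in the control, then 35.9 at 0 days, 7.92 at 6 days and 10.0 at 10 days, the highest non-classical value of the 0-day library. H2-Q7, which encodes the membrane-anchored Qa-2 antigen, stood at 0.255, 9.73, 1.92 and 2.94 FPKM. H2-M3, which presents bacterial peptides that begin with formyl-methionine, stood at 0.467, 5.40, 0.783 and 2.07 FPKM. In all 3 the 0-day library was the highest and the control the lowest. H2-Q8 (0.118, 6.55, 0.505 and 1.04 FPKM), H2-Q5 (0.163, 2.38, 0.625 and 0.570) and H2-T10 (0.0760, 3.93, 0.369 and 0.384) had the same order of peak and control. H2-Q5 and H2-T10 are, like H2-Bl, annotated as polymorphic pseudogenes. H2-T10 is a relative of H2-T22, and both encode ligands of gamma-delta T cells.

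Others were highest at 10 days. H2-T23, which encodes Qa-1, the ligand of an inhibitory receptor of natural killer cells, stood at 0.0277 FPKM in the control, then 1.24 at 0 days, 3.21 at 6 days and 14.6 at 10 days. The control value is worth about 1 fragment, so no fold is given; the log2 difference at 10 days against the control was 3.92. H2-Q10, which encodes a class I molecule secreted by the liver, stood at 0.0946, 0.634, 1.54 and 7.86 FPKM, and H2-Q2 at 0.146, 1.79, 3.39 and 4.37 FPKM. All 3 were lowest in the control and higher in each later ATRA library. H2-T22 (1.68, 13.5, 8.41 and 20.8 FPKM) and H2-Q4 (1.46, 23.6, 12.3 and 26.2 FPKM) were high at both 0 and 10 days and lower at 6 days. H2-K2, a transcribed pseudogene with 2 rows in the table, summed to 1.59, 2.37, 1.60 and 4.17 FPKM.

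The other 13 non-classical genes stayed below 1 FPKM. H2-Q1 (0.0928, 0.389, 0.669 and 0.980 FPKM) and H2-M2 (0.0987, 0.0203, 0.203 and 0.540) were the highest of them. H2-T24 reached at most 0.143 FPKM and H2-T3 0.0708. H2-M1, H2-M10.1, H2-M10.3, H2-M10.4 and H2-M11 were listed at 0 in every library, and H2-M10.2, H2-M10.5, H2-M10.6 and H2-M9 had a value in 1 library each, worth 1 or 2 fragments. The M10 genes are known for expression in the vomeronasal organ.

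**Figure D2:**
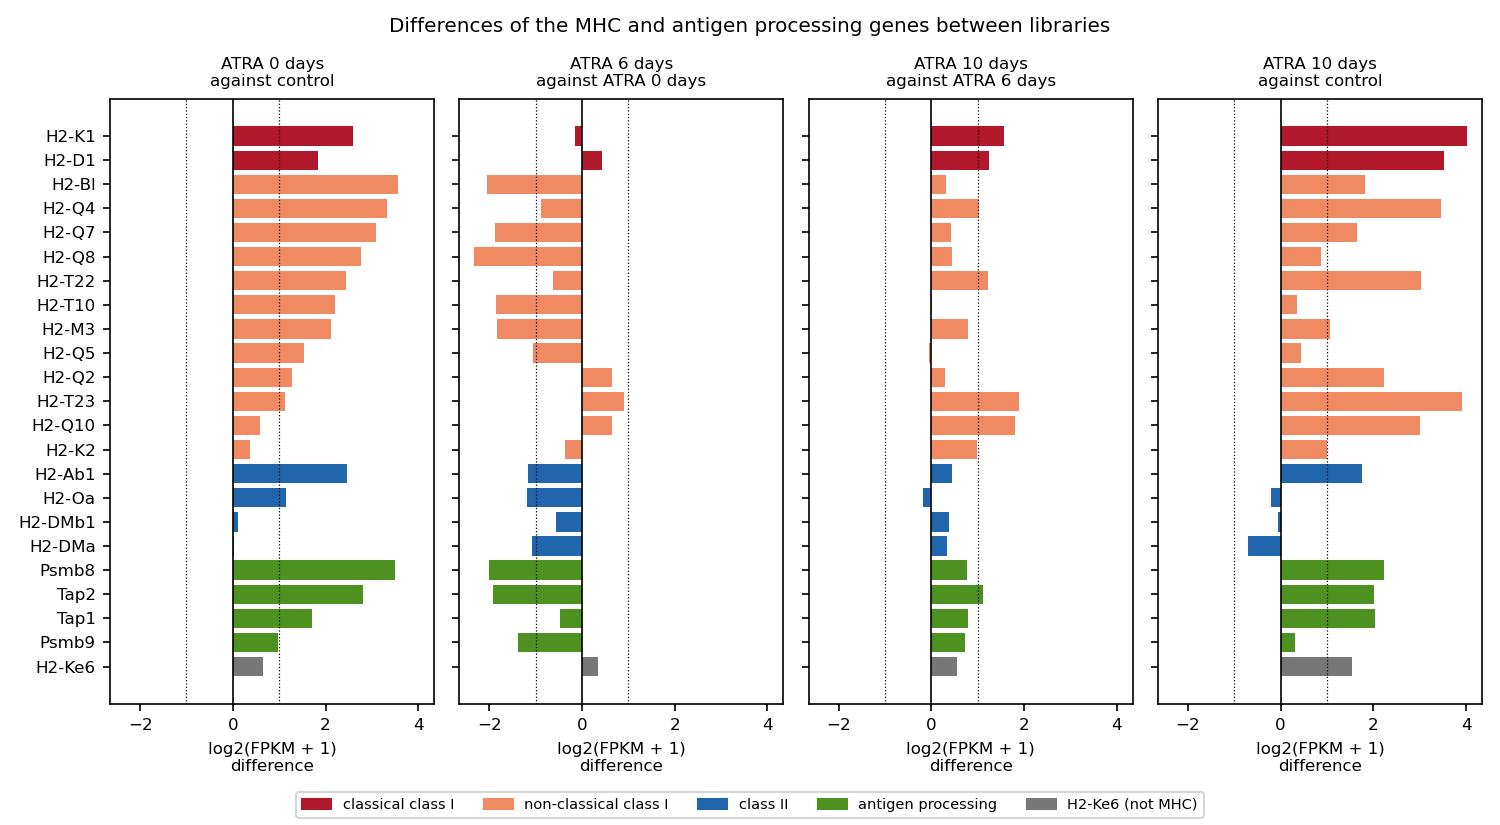
Differences in log2(FPKM + 1) of the 23 genes in 4 comparisons, with dotted lines at 2-fold; bars are coloured by class. At 0 days no bar lies below 0, at 6 against 0 days 12 lie beyond the lower line, and at 10 against 6 days 7 lie beyond the upper line.

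Class II genes were low throughout. Of 10, 4 passed the filter. In the 0-day library 2 were higher than in the control (12.2% of all tested genes were), and 3 were lower at 6 than at 0 days (4.88%). Only 2 of the 4 reached 1 FPKM in the control itself, and 1 of these was higher at 0 days. H2-Ab1, the beta chain of the classical I-A molecule (chromosome 17, 34257689 to 34269419), stood at 0.533 FPKM in the control, then 7.51 at 0 days, 2.81 at 6 days and 4.15 at 10 days. Its partner H2-Aa, the alpha chain, was listed at 0 in the control and did not exceed 0.0798 FPKM, worth about 2 fragments, in the others. The 2 chains of the molecule thus differed widely in level. H2-Oa, one chain of an inhibitor of peptide loading, stood at 1.58, 4.75, 1.54 and 1.24 FPKM, and its partner H2-Ob was listed at 0 in 3 libraries and at 0.0134 FPKM at 10 days. The loading catalyst chains H2-DMa (2.03, 2.09, 0.453 and 0.847 FPKM) and H2-DMb1 (0.993, 1.17, 0.468 and 0.911 FPKM) were close between 0 days and the control and lowest at 6 days. H2-Eb1 reached 0.676 FPKM and H2-Eb2 0.0544, while H2-DMb2 and H2-Ea-ps were listed at 0 in all libraries.

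The 4 antigen processing genes, which lie side by side within the class II region, summed to 5.56 FPKM in the control, then 36.2 at 0 days, 12.5 at 6 days and 25.5 at 10 days. Psmb8, an inducible catalytic subunit of the proteasome (chromosome 17, 34197721 to 34201454), stood at 0.0337 FPKM in the control, about 1 fragment, and at 10.6, 1.87 and 3.87 FPKM at 0, 6 and 10 days. Its log2 difference was 3.49 at 0 days against the control and -2.02 at 6 against 0 days. Tap2 stood at 0.450, 9.20, 1.71 and 4.86 FPKM over the 4 libraries. Both were highest at 0 days, although Tap2 at 10 days was within 2-fold of that level.

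Tap1, the other subunit of the peptide transporter, stood at 2.49, 10.4, 7.20 and 13.3 FPKM, and so held its level at 6 days better than Tap2. The ratio of Tap1 to Tap2 was 5.54 in the control, then 1.13 at 0 days, 4.21 at 6 days and 2.73 at 10 days. Psmb9, another inducible subunit, stood at 2.58, 6.05, 1.69 and 3.48 FPKM, just short of the threshold at 0 days (log2 difference 0.98; 1.10 with median-ratio and 1.17 with upper-quartile scaling). Psmb6, the constitutive subunit that Psmb9 replaces, was at 270, 157, 254 and 286 FPKM, so the ratio of Psmb9 to Psmb6 was 0.00959, 0.0387, 0.00664 and 0.0122. In the GENCODE M21 annotation, Psmb9 and Tap1 lie head to head on opposite strands and overlap by 212 bases, while their RefSeq start sites lie apart. Which annotation was used and whether strand counted are not stated, so reads of such an overlap may have gone to either gene.

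H2-Ke6 (64.3, 101, 128 and 188 FPKM) was lowest in the control and higher in each later ATRA library, and had a level like that of H2-K1 at 10 days. It reached 2-fold only at 10 days against the control (log2 difference 1.54).

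Class I genes are near-identical over parts of their transcripts, and reads from such parts are split by a model. Of the 50-base windows of H2-T22, 44.7% also occur in another gene, mostly in H2-T10 (37.9%), and of those of H2-T10 42.9%, mostly in H2-T22 (40.2%). For H2-Q7 34.9% of windows were shared, most often with H2-Q6, and for H2-Q5 35.4%, most often with H2-Q7. The share was 28.8% for H2-T23, 24.3% for H2-Q4, 14.3% for H2-D1 and 8.79% for H2-K1. Values of single Q and T genes are therefore uncertain; all 7 Q genes summed to 2.33 FPKM in the control, then 45.1 at 0 days, 20.9 at 6 days and 44.0 at 10 days, and H2-Bl with the T genes to 3.91, 54.7, 20.1 and 46.0 FPKM. H2-Bl, H2-Ab1, H2-Oa, H2-DMa, Psmb8 and Psmb9 shared no window, H2-M3 0.576%, Tap2 0.737% and Tap1 0.861%. Only exact matches to 1 transcript of each gene were counted. Stretches that differ by a base are missed, and a low share does not show that no reads were shared. Of these 9 genes, Tap1 was highest at 10 days and the others at 0 days, H2-DMa by little over the control (2.09 FPKM at 0 days and 2.03 FPKM in the control). The next lowest shares past the filter were those of H2-Q10 (8.03%), H2-Q2 (8.74%), H2-K1 (8.79%) and H2-K2 (10.9%), all highest at 10 days. H2-DMb1 shared 27.2% with H2-DMb2, and H2-Ke6 62.9% with the read-through gene Gm20427. GENCODE M21 has no H2-Q8 on its reference chromosomes, so its overlap was not computed.

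**Figure D3:**
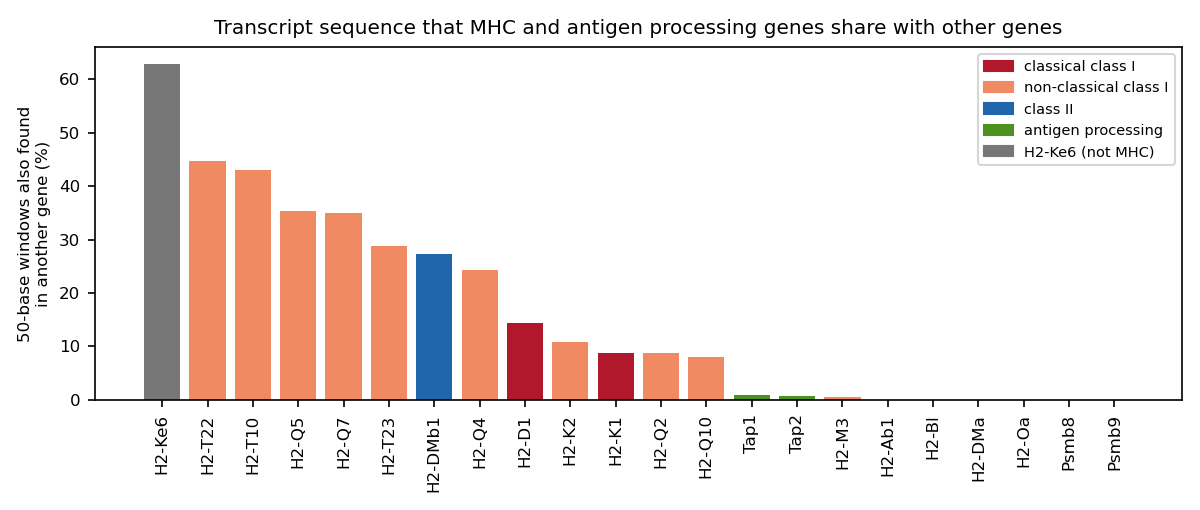
Percent of the 50-base windows of each gene's transcript that also occur in transcripts of another gene, for 22 of the 23 genes past the filter (H2-Q8 has no transcript there), coloured by class. H2-T22 and H2-T10 share over 40%, while Psmb8, Psmb9, H2-Bl, H2-Ab1, H2-Oa and H2-DMa share none.

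All H2- genes with a position lie on chromosome 17 between 33974659 and 37483552, and that span holds many unrelated genes. Of 129 such genes, 74 passed the filter. At 0 days 4 were higher than in the control and 17 lower (12.2% and 12.8% of all tested genes), with a median of -0.39. At 6 against 0 days 8 were higher and 1 lower (8.22% and 4.88%). At 10 against 6 days 5 were higher and none lower (3.70% and 0.850%). At 10 days against the control 18 were higher and 9 lower (19.6% and 17.1%). Of the 43 with a 2-fold range, 1 was highest at 0 days, 22 at 10 days and 19 in the control (17.9%, 34.6% and 39.4% of all such genes). This set is a description beside the MHC genes, and the difference was not tested. Pou5f1, the pluripotency factor Oct4, lies in the same span and stood at 97.4 FPKM at 0 days and 1241 FPKM in the control.

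**Figure D4:**
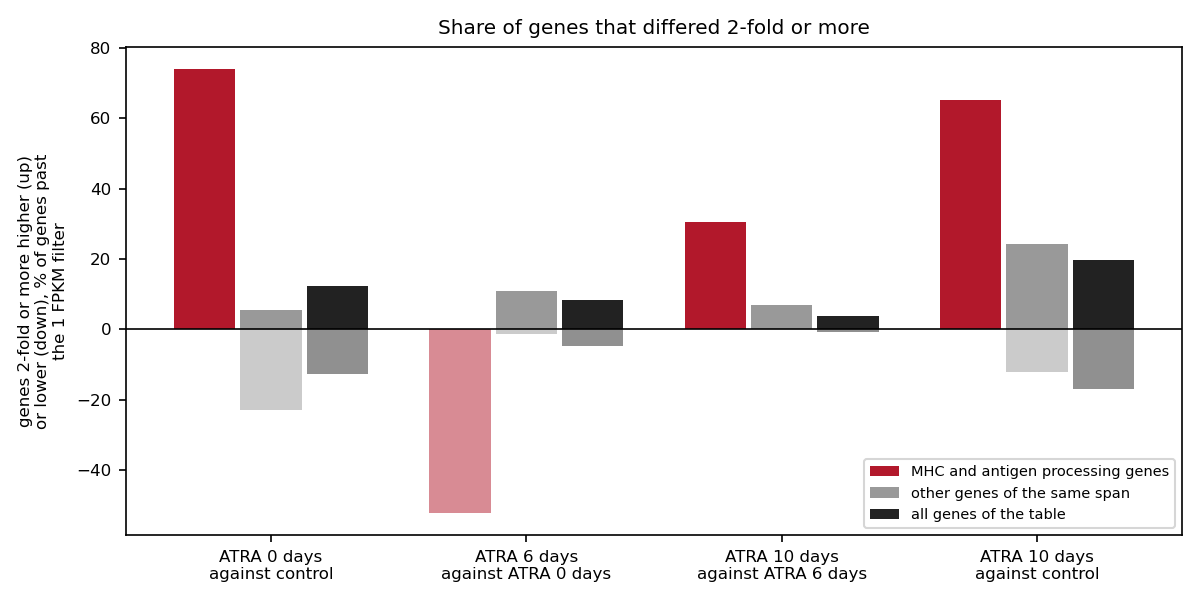
Percent of genes past the 1 FPKM filter that were 2-fold or more higher (bars up) or lower (pale bars down) in 4 comparisons, for the 23 MHC and antigen processing genes, 74 other genes of the same span of chromosome 17, and all 5885 tested genes. The MHC genes stand above the others at 0 days against the control (17 of 23) and below them at 6 against 0 days (12 of 23 lower).

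Other genes of the class I pathway differed in both directions. Of 15 listed proteasome and peptidase genes 10 were in the table. At 0 days against the control 2 were higher and 2 lower (12.2% and 12.8% of all tested genes), with a median of -0.36. Erap1, which trims peptides for class I, stood at 0.408, 5.11, 1.66 and 1.56 FPKM, with its peak at 0 days. Psme2, a subunit of the interferon-inducible proteasome activator, stood at 83.9, 188, 148 and 225 FPKM, while Psme3 (89.5, 42.5, 45.9 and 32.3) and the peptidase Thop1 (57.4, 18.3, 22.8 and 22.2) were highest in the control. Of 10 listed loading factors, Canx (153, 130, 157 and 133 FPKM) and Uggt1 (14.5, 10.2, 12.3 and 13.9 FPKM) were in the table and did not reach 2-fold in any comparison.

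For the class II pathway, 8 of 14 listed genes were in the table and 6 were tested. At 0 days 2 were higher than in the control and none lower (12.2% and 12.8% of all tested genes), with a median of 0.86. Cd74, the invariant chain that escorts class II molecules, stood at 1.25, 2.44, 0.799 and 1.73 FPKM. It did not reach 2-fold on the log2(FPKM + 1) scale, which understates a low gene (-0.93 at 6 against 0 days). Ciita, the master regulator of class II genes, was listed at 0 in the control and at 0 days and at 0.0128 FPKM or less afterwards. The lysosomal proteases and membrane protein of the list were much higher: Ctsl at 196, 322, 1294 and 1122 FPKM, Ctsb at 41.2, 155, 117 and 128, Lgmn at 45.5, 87.0, 375 and 362, and Cd63 at 121, 329, 831 and 1207. These have general lysosomal roles outside antigen presentation.

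Among 30 listed regulators and interferon receptors 19 were in the table and 16 tested. Of these, 3 were higher at 0 days than in the control and 1 lower (12.2% and 12.8% of all tested genes), with a median of 0.33. Irf1, the interferon regulatory factor that acts on class I promoters, stood at 10.2 FPKM in the control, then 40.6 at 0 days, 11.4 at 6 days and 10.7 at 10 days. It was thus high in the 0-day library alone. The interferon gamma receptor chains Ifngr1 (1.83, 6.66, 7.52 and 7.99 FPKM) and Ifngr2 (2.51, 6.57, 18.8 and 26.6) stayed above the control in all ATRA libraries. Socs1, an inhibitor of this signalling, stood at 1.63, 3.53, 3.42 and 8.08 FPKM, and Ifnar2, an interferon alpha receptor chain, at 11.5, 16.5, 22.0 and 39.3 FPKM. Ifng itself was listed at 0 in every library. Of 18 tested interferon response genes 7 were higher and 4 lower at 0 days against the control (12.2% and 12.8% of all tested genes), with a median of 0.53. At 10 days against the control 9 were higher and 3 lower (19.6% and 17.1%). At 6 against 0 days none was higher and 5 were lower (8.22% and 4.88%). Ifi27l2a was listed at 0 in the control and at 2.40, 3.11 and 16.8 FPKM at 0, 6 and 10 days. Xaf1 stood at 23.8, 4.06, 2.81 and 7.39 FPKM.

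Markers of leukocytes, the main class II expressing cells, were low at 0 days apart from Cd68. Of 30 listed 17 were in the table and 7 passed the filter. The whole list summed to 1459, 575, 931 and 764 FPKM, nearly all of it Cd68 (1455, 572, 920 and 736 FPKM). Cd68 lies beside Eif4a1 on the same strand, and whether reads of Eif4a1 were counted for it was not tested. Without Cd68, the list summed to 4.51 FPKM in the control, then 3.75 at 0 days, 11.4 at 6 days and 27.7 at 10 days. The defining leukocyte gene Ptprc did not exceed 0.0332 FPKM, and Cd48 was listed at 0 in every library. Fcgr3 (0.409, 1.45, 5.86 and 13.1 FPKM), Csf1r (0.0281, 0.803, 1.44 and 4.15) and Cd14 (0.229, 0.414, 2.31 and 7.52) made up most of the 10-day sum. Endoderm markers (11 of 19 in the table, all tested) summed to 187, 391, 2784 and 4078 FPKM, most of it Sparc (133, 259, 1862 and 2711). Ttr stood at 1.07, 15.4, 183 and 356 FPKM and Apoa2 at 0.107, 6.24, 40.8 and 146. Trophoblast markers (11 of 19 in the table, 9 tested) summed to 0.499, 0.251, 62.0 and 156 FPKM. Neuron markers (7 of 16, 6 tested) summed to 9.52, 17.03, 82.4 and 40.8 FPKM, endothelial markers (7 of 20, 4 tested) to 43.9, 11.6, 44.6 and 65.9, and pluripotency markers (9 of 18, all tested) to 2319, 188, 276 and 247. The part of these cell types in the levels of H2-K1, H2-D1, H2-T23 and H2-Q10 at 10 days was not tested.

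The scaling of the libraries moves all values. Relative to the deposited FPKM, the median over tested genes shifted by 0.11 (log2) with median-ratio and by 0.18 with upper-quartile scaling at 0 days against the control, by 0.15 and 0.08 at 10 days against the control, and upper-quartile scaling by -0.11 at 10 against 6 days. The share of higher genes among all that differed went with it: at 0 days against the control it was 48.9% as deposited, 60.6% with median-ratio and 65.5% with upper-quartile scaling, and at 10 against 6 days 81.3% as deposited and 67.5% with upper-quartile scaling. Of 6 reference genes 2 were lower at 0 days than in the control (12.8% of all tested genes were), with a median of -0.76. Among the MHC genes, scaling changed calls of 3 genes. Psmb9 is given above. H2-K2, just under the threshold at 10 days against the control, was at 1.12 with median-ratio and 1.05 with upper-quartile scaling, and at 1.01 at 10 against 6 days with median-ratio scaling. H2-Q4 was at 1.04 at 10 against 6 days and at 0.91 with upper-quartile scaling.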

How the data were processed

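The deposited values are FPKM per gene symbol with 1 column for each of the 4 libraries, per the file headers. The submitters' processing notes name Trimmomatic, TopHat, Cufflinks and mm10 without versions. Which annotation was used, whether strand counted, and what was filtered (not given in the sources used here) could change these values. Cufflinks assigns fragments that fit several similar transcripts by a likelihood model, which bears on class I genes. The ES line comes from a strain 129 mouse and mm10 from C57BL/6J, so reads of polymorphic MHC genes may align less well; this was not tested.

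The 10201 rows held 9997 symbols, and rows of a repeated symbol were summed. Differences were taken on log2(FPKM + 1) for the 5885 symbols that reached 1 FPKM in any library, with calls at 2-fold. No test was possible, since each group is a single library. Depth was estimated from the worth of 1 fragment, as the median of the values between 0.02 and 0.05 FPKM times kb among 1396 symbols with 1 annotated transcript of 800 nt or more; such estimates cover counting error only. Positions and transcripts came from GENCODE M21, promoters from RefSeq. The log2 difference with its 2-fold threshold was tried on simulated data with counting error only. The planted changes were 4-fold, in genes at 5 FPKM or more in the control. Changes in genes below that level, as most of the MHC genes were in the control, were not simulated. Every gene of the rule is named; of other lists, the 4 with the largest range among those at 5 FPKM or more could be named, and any others were picked with their values in view. The genes and lists were chosen with earlier results of these data known. The alternatives were pseudocounts of 0.1 and 0.5, no filter and a 5 FPKM filter, median-ratio and upper-quartile scaling, a 4-fold threshold, and the highest row of a repeated symbol. Python 3.11.15, numpy 2.4.6, pandas 2.3.3 and matplotlib 3.10.9 were used.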

Additional observations from a re-analysis of the deposited data

How the results depend on the processing

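Of 172 recomputed values 141 stayed within the limits set for them (1.5 times for a count, the counting error for a sum, 0.1 for a median) and 31 moved. A change of direction was looked for only in medians and sums that differed 2-fold or more, not in counts, and none was found. The count of 17 genes higher at 0 days than in the control was 11 at a 4-fold threshold, and the 12 lower at 6 than at 0 days were 3. The 7 genes higher at 10 than at 6 days were 11 with a pseudocount of 0.1 and 0 at 4-fold. A pseudocount of 0.1 gave 1 gene lower at 10 days than in the control, H2-DMa, and 2 higher at 6 than at 0 days, H2-Q10 and H2-T23, of which a pseudocount of 0.5 kept 1, H2-T23. The log2 difference of the classical class I sum at 0 days against the control was 2.37, with 2.53 under median-ratio and 2.61 under upper-quartile scaling. At 10 days against the control it was 3.89 and 4.06 under median-ratio scaling, and at 10 against 6 days 1.45 and 1.32 under upper-quartile scaling. For the antigen processing sum at 0 days against the control it was 2.50, with 2.68 at a pseudocount of 0.1 and 2.73 under upper-quartile scaling, and at 10 against 6 days 0.98 and 0.85 under upper-quartile scaling. The cause of these moves was not tested beyond the settings themselves. Without a filter, the median over all 42 genes at 0 days against the control was 0.36 in place of 1.85. No paired analysis was possible because each group has 1 library. On a 1.5 kb transcript, 0.0816 FPKM or less in the control rests on 3 fragments or fewer.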

Other observations

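Ligands of the activating receptor NKG2D, class I-like proteins that flag stressed cells to natural killer cells, are encoded outside the H2 complex. Raet1a stood at 4.42 FPKM in the control and, with ATRA, at 71.3 (0 days), 6.14 (6 days) and 5.04 FPKM (10 days), and H60b at 2.30, 5.58, 0.276 and 0.318 FPKM. Both were highest at 0 days, like H2-Bl and Psmb8. Ulbp1, another ligand, stood at 5.77, 4.81, 4.74 and 3.74 FPKM. Of 11 class I-like genes found, 5 were tested. At 0 days against the control 1 was higher and 1 lower (12.2% and 12.8% of all tested genes), with a median of 0.45. The lower one was 2410137M14Rik, whose kinship to class I genes the annotation used here does not state, at 30.0, 1.45, 2.02 and 1.64 FPKM.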
